A study of Homo sapiens with 27 samples.

Results

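The genes described here encode the cleavage factors I and II, the canonical nuclear poly(A) polymerases, the nuclear poly(A)-binding protein and RBBP6. They are the 9 genes NUDT21, CPSF6, CPSF7, PCF11, CLP1, PAPOLA, PAPOLG, PABPN1 and RBBP6, chosen by name and by the role of their products from the 20268 gene rows of the count table, and all 9 passed the filter on low counts in each cell line. RNA-seq was performed on LNCaP, LNCaP95 and 22Rv1 prostate cancer cells carrying either a lentiviral control hairpin (CTRL sh) or a lentiviral hairpin, CPSF1 sh1 or CPSF1 sh2, that targets CPSF1. CPSF1 encodes a subunit of the cleavage and polyadenylation specificity factor (CPSF). LNCaP is an androgen-sensitive line, and LNCaP95 and 22Rv1 grow without hormone. Each of the 9 groups had 3 replicate libraries, which gave 3 CTRL sh and 6 CPSF1 sh libraries per line and 27 in all.

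All cells, controls included, were transduced, selected in puromycin and expanded, with no cloning step described, and were then plated, 500000 to a well, and cultured in 10% FBS for 72 h. LNCaP and 22Rv1 cells were kept in standard RPMI and LNCaP95 cells in the phenol red-free form. Line and medium therefore cannot be told apart in any comparison of LNCaP95 with another line. The sources call the replicates biological without saying whether each came from its own infection, and p-values measure only the spread between these libraries. The comparisons ask how stable CPSF1 knockdown was accompanied by changes in the mRNAs of the other factors of the same reaction. Changes in mRNA do not measure protein, and in bulk RNA fewer cells with a transcript and less of it per cell cannot be told apart.

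Most mRNAs are cut after a poly(A) signal, usually AAUAAA, and given a poly(A) tail. CPSF reads the signal and cuts. Cleavage factor I (CFI), a pair of NUDT21 (CFI25) subunits with CPSF6 (CFI68) or CPSF7 (CFI59), binds UGUA upstream of the site and is known for favoring distal sites. Cleavage factor II (CFII), formed by PCF11 and CLP1, is needed for cleavage and links it to termination of transcription. PAPOLA and PAPOLG add the tail, PABPN1 binds it and makes its synthesis processive, and RBBP6 is a large ubiquitin ligase that activates the cut.

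Because these mRNAs are themselves substrates of the reaction, the sequence at the end of each gene was read from the GRCh37 genome at the deposited coordinates. The 5 members shown are those that passed the test in LNCaP95 cells, where the calls went in both directions. Each line gives 30 bases of the mRNA-sense strand from 5′ to 3′, close to the end of the gene, with the poly(A) signal in capitals.
NUDT21: tcatttcAATAAAaaatatttgaaagagaa
CPSF6: tattgaaAATAAAacaaacttttgataaga
PAPOLA: tgaaaacacAATAAAaaaaaaacagcacaa
PAPOLG: aagtaatcaAATAAAattgctttgataaat
PABPN1: tgaaAATAAAaattgtttggccttttgggt
The windows lie at chr16:56463045-56463074 on the minus strand for NUDT21 and on the plus strand for the others, at chr12:69668109-69668138 for CPSF6, chr14:97033419-97033448 for PAPOLA, chr2:61029191-61029220 for PAPOLG and chr14:23795361-23795390 for PABPN1. The signal began between 21 and 30 bases before the end of the gene in these 5 members. AATAAA, searched on the mRNA-sense strand of the last 50 bases, was found in 8 of 9 members and in 56.63% of the 20232 genes with a single locus. PCF11 had neither AATAAA nor the variant ATTAAA in that window, and 69.51% of all genes had at least 1 of these. Matches of the 2 motifs were allowed to share bases. TGTA, the DNA form of UGUA, was found on the same strand of the last 100 bases in 7 of 9 members, all except CLP1 and RBBP6, and in 48.65% of all genes. These matches are descriptions of the letters in these windows, not of sites in use.

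A library held 8515624 to 15904518 counts on genes (median 11058723), and the members held between 117 counts (PAPOLG) and 6095 counts (PAPOLA) in a library. Biological variation between replicates, as edgeR's coefficient, came to 4.95% for LNCaP, 7.09% for LNCaP95 and 6.08% for 22Rv1 libraries. The chi-square per degree of freedom (1 for counting error alone) was 5.22 between LNCaP95 CTRL sh replicates 1 and 2. Against replicate 3 of that group they gave 2.87 and 2.97. The 22Rv1 CPSF1 sh1 replicate 3 stood apart from its group, with 7.31 and 4.56 against replicates 1 and 2, which gave 1.97 against each other. Without it, 4 members rose and 1 fell in 22Rv1 cells, where 2214 of 11744 genes rose and 2372 fell. With it, 1487 of 11728 genes rose and 1673 fell. The prostate epithelial genes KLK3, KLK2, FOLH1, TMPRSS2 and HOXB13 were detected in every library. Of markers of other cells, DCN, COL1A2 and PTPRC never exceeded 14 counts, and COL1A1 lay between 10.7 and 73.9 CPM. CPSF1 fell in each line, with no overlap of the groups: mean normalized CPM went from 151 to 96.2 in LNCaP (log2 fold change −0.65 ± 0.056, SE), from 114 to 61.4 in LNCaP95 (−0.89 ± 0.079) and, in 22Rv1 cells, from 184 to 130.4 (−0.50 ± 0.063), with edgeR adjusted p of at most 9.7e-05. The fall of CPSF1 itself was larger in LNCaP95 than in 22Rv1 cells (log2 difference 0.39, adjusted p = 0.0025), and its part in the differences between lines given below was not tested.

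Under CTRL sh, levels per length of exon (normalized RPKM, counts scaled by exon length and by library size over all 27 libraries) spanned a wide range. NUDT21 was highest in each line, with 57.0 ± 2.8 RPKM (SD, n = 3) for LNCaP, 48.8 ± 2.3 for LNCaP95 and 82.4 ± 1.4 for 22Rv1 cells. CPSF7 and PAPOLA followed, between 35.3 and 44.7 RPKM on average. CPSF6, PABPN1 and RBBP6 held the middle, between 14.3 and 36.1 RPKM. PCF11 (9.42 to 17.9 RPKM), its partner CLP1 (5.39 to 8.02) and PAPOLG (1.88 to 4.24) were lowest, in that order in every line except that PABPN1 was below PCF11 in LNCaP95 cells. Libraries of neighbors in this order overlapped for PABPN1 and CPSF6 in LNCaP and for NUDT21 and CPSF7 and for CPSF6 and PCF11 in LNCaP95 cells.

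**Figure D1:**
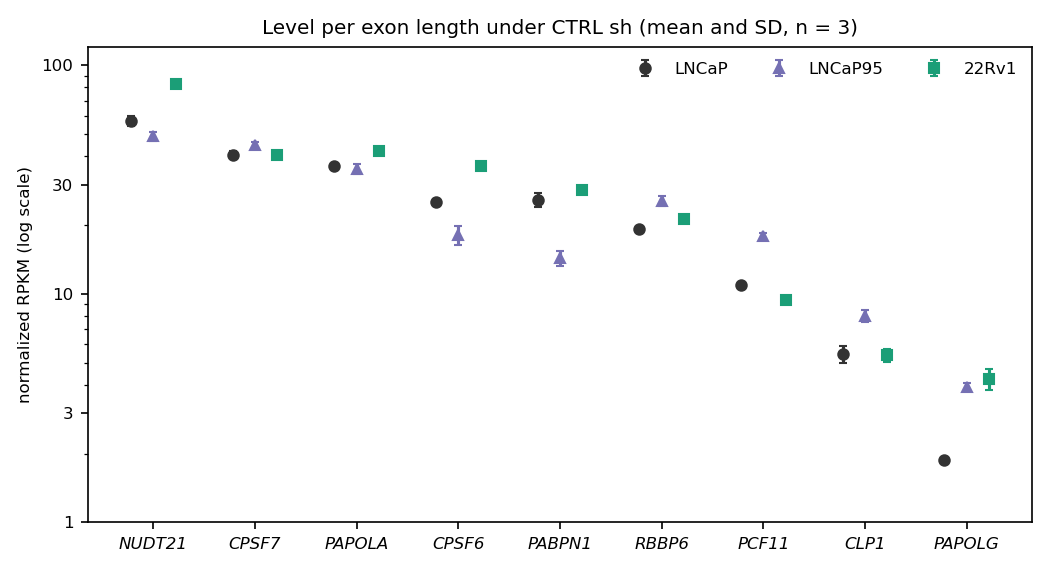
Normalized RPKM (log scale) of each gene under CTRL sh, as mean and SD of 3 libraries in LNCaP (circles), LNCaP95 (triangles) and 22Rv1 cells (squares), ordered by the mean over lines. NUDT21 was highest and PAPOLG lowest in each line.

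Most members differed between lines before knockdown, as most genes did. Among 10477 genes tested, 8 of 9 members differed between LNCaP95 and LNCaP, against 80.5% of all genes, 7 between 22Rv1 and LNCaP, against 82.7%, and 8 between 22Rv1 and LNCaP95 cells, against 84.5%. PAPOLG, the less abundant polymerase, was lower in LNCaP than in the other lines: its level was 1.04 ± 0.089 higher on the log2 scale in LNCaP95 (adjusted p = 2.0e-10) and 1.16 ± 0.089 higher in 22Rv1 cells (adjusted p = 1.9e-11), which did not pass the test against each other (0.12, adjusted p = 0.14). CPSF6 and PABPN1 were lowest in LNCaP95, where the level of 22Rv1 exceeded that of LNCaP95 by 1.00 on the log2 scale for each (adjusted p = 1.1e-14 and 1.5e-13). Both CFII genes were highest in LNCaP95, with PCF11 0.69 ± 0.046 and CLP1 0.53 ± 0.092 above LNCaP (adjusted p = 1.3e-12 and 1.3e-05). NUDT21 was highest in 22Rv1, 0.51 above LNCaP and 0.75 above LNCaP95 (adjusted p = 7.7e-11 and 4.4e-14).

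The level differences of RBBP6, PAPOLA and CPSF7 were smaller. RBBP6 was highest in LNCaP95 cells, by 0.38 on the log2 scale over LNCaP and with −0.25 in 22Rv1 minus LNCaP95. PAPOLA in 22Rv1 was 0.19 above LNCaP and 0.25 above LNCaP95 cells. CPSF7 spanned the narrowest range of levels of the CFI genes, 0.12 higher in LNCaP95 than in LNCaP and −0.02 in 22Rv1 minus LNCaP (adjusted p = 0.69). In 22Rv1 minus LNCaP95 it gave −0.14 (adjusted p = 0.0031), a call lost under scaling by library size alone (−0.084, adjusted p = 0.064). The CPSF7 call between LNCaP95 and LNCaP was lost without the LNCaP95 CTRL sh replicate 3 (0.10, adjusted p = 0.060), and the PABPN1 call between 22Rv1 and LNCaP (0.13, adjusted p = 0.043) without replicate 1 or 2 of CTRL sh in either line (0.10 to 0.13, adjusted p = 0.071 to 0.17).

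With CPSF1 knockdown, the members moved in both directions. In LNCaP cells 4 of 9 rose and 2 fell at an adjusted p below 0.05, where 31.1% of 11096 tested genes rose and 31.0% fell. In LNCaP95 cells 3 rose and 2 fell, where 33.2% of 11143 genes rose and 33.7% fell. In 22Rv1 cells 1 rose and 1 fell, where 12.7% of 11728 genes rose and 14.3% fell. Scaling by library size alone instead of TMM kept the same member counts in LNCaP95 but moved the calls over all genes there from 3694 higher and 3756 lower to 4685 and 2850. The 6 CPSF1 sh libraries lay wholly above or wholly below the 3 CTRL sh libraries for 6 members in LNCaP (55.6% of all genes), 5 in LNCaP95 (60.0%) and 2 in 22Rv1 cells (28.2%). The members' median log2 fold change was 0.065 for LNCaP, −0.015 for LNCaP95 and 0.13 for 22Rv1, against −0.00036, 0.0013 and −0.0024 over all genes. The median size of the change, without its sign, was 0.20 for members and 0.22 for all genes in LNCaP cells. These medians were 0.38 and 0.27 for LNCaP95 and 0.13 and 0.12 for 22Rv1.

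**Figure D2:**
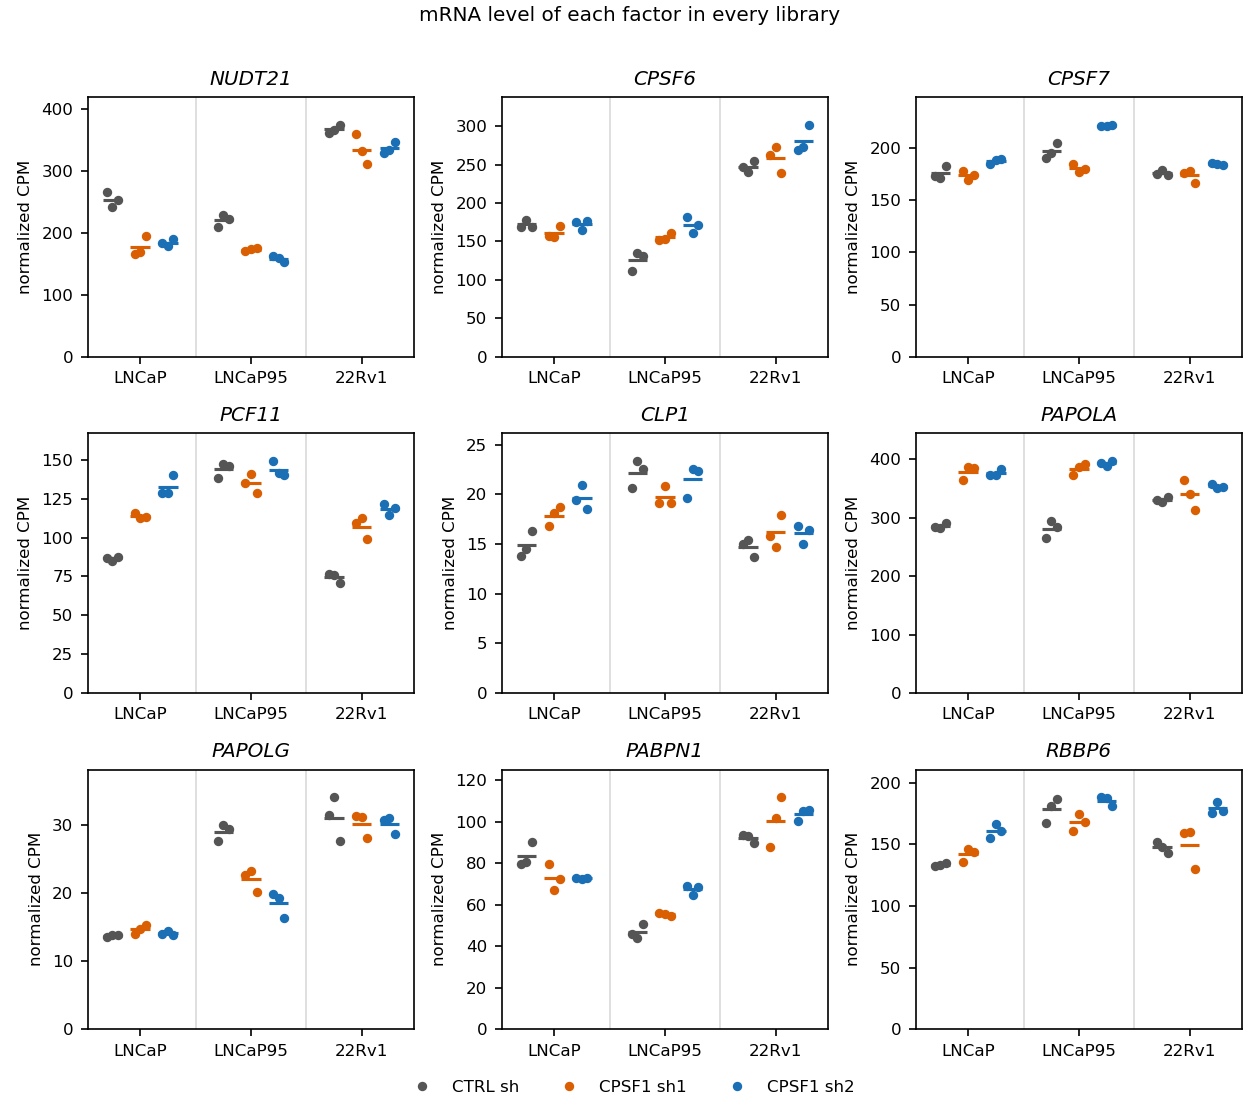
Normalized CPM of the 9 genes in each of the 27 libraries, with CTRL sh in gray, CPSF1 sh1 in orange and CPSF1 sh2 in blue; points are libraries and bars are group means, and each panel has its own axis from 0. NUDT21 was lower in every CPSF1 sh library than in every CTRL sh library of the same line.

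Of the CFI genes, NUDT21, the subunit that contacts UGUA (chr16:56463045-56486111), fell in all lines. In LNCaP cells its level was 267, 242 and 254 normalized CPM under CTRL sh, 166, 169.5 and 195 under CPSF1 sh1, and 184, 179 and 189.8 under CPSF1 sh2. In LNCaP95 cells it was 209, 229.9 and 224 under CTRL sh, 171, 174 and 176 under CPSF1 sh1, and 162, 160.1 and 154 under CPSF1 sh2. The groups were well apart in both lines, and NUDT21 changed by −0.49 ± 0.049 (log2, SE) in LNCaP (adjusted p = 8.1e-07), where the level fell by 28.9%, and −0.41 ± 0.051 in LNCaP95 cells (adjusted p = 1.9e-05). In 22Rv1 cells, where NUDT21 began highest, it was 361, 366 and 375 under CTRL sh, 360.02, 333 and 312 under CPSF1 sh1, and 330.3, 334 and 347 under CPSF1 sh2. The 22Rv1 groups did not overlap, but the lowest control and the highest knockdown library nearly met. Its change of −0.13 ± 0.044 passed the threshold narrowly (adjusted p = 0.043) and lost it when any of 6 of the 9 libraries was left out, namely CTRL sh replicates 1, 2 and 3, CPSF1 sh1 replicate 2 and CPSF1 sh2 replicates 1 and 2 (−0.14 to −0.11, adjusted p = 0.068 to 0.16).

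CPSF6, the larger partner of NUDT21 with an RS-like domain (chr12:69633317-69668138), rose in LNCaP95 cells only among the lines tested here. Its level there was 111, 135 and 131 normalized CPM under CTRL sh, 152, 154 and 161 under CPSF1 sh1, and 182, 161 and 172 under CPSF1 sh2. Every knockdown library exceeded every control, with a log2 fold change of 0.38 ± 0.072 (adjusted p = 4.4e-04). In LNCaP cells CPSF6 ranged from 169 to 178 under CTRL sh and from 156 to 177 with knockdown (−0.05 ± 0.046, adjusted p = 0.39), although with CPSF1 sh1 it fell there (−0.10 ± 0.043, adjusted p = 0.048), opposite to LNCaP95. In 22Rv1 cells it ranged from 240.1 to 255 and from 239 to 302 (0.13 ± 0.058, adjusted p = 0.12), a value that passed with CPSF1 sh2 alone and without CPSF1 sh1 replicate 3 (0.16, adjusted p = 0.0099).

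CPSF7, the alternative partner of NUDT21 (chr11:61170121-61197503), did not pass the test with the hairpins pooled in any line, with log2 fold changes of 0.04 ± 0.042, 0.03 ± 0.082 and 0.03 ± 0.044 in LNCaP, LNCaP95 and 22Rv1 cells (adjusted p = 0.40, 0.77 and 0.70). In LNCaP cells it rose with CPSF1 sh2 (0.09 ± 0.036, adjusted p = 0.031) and had a value of −0.01 with CPSF1 sh1 (adjusted p = 0.75). In LNCaP95 cells the hairpins went opposite ways. Its level was 191, 195 and 205 normalized CPM under CTRL sh, 184, 177 and 179.6 under CPSF1 sh1, and 221, 221 and 222 under CPSF1 sh2, so that the 3 groups did not overlap. CPSF7 fell with CPSF1 sh1 (−0.12 ± 0.040, adjusted p = 0.010) and rose with CPSF1 sh2 (0.17 ± 0.040, adjusted p = 6.8e-04), and the hairpins differed by 0.30 ± 0.040 on the log2 scale (adjusted p = 1.3e-05). CPSF7 shares 85 exon bases with RP11-286N22.8 on the other strand, and the authors counted reads by strand.

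The mRNAs of CFI subunits can be compared within each library, without any scaling, as a ratio of counts per base of exon. This is a ratio of RNA counts on annotated exons and does not give the proportions of the proteins. NUDT21 over CPSF6 was 2.26 ± 0.17 (SD, n = 3) under CTRL sh, 1.68 ± 0.068 under CPSF1 sh1 and 1.64 ± 0.027 under CPSF1 sh2 in LNCaP cells. In LNCaP95 cells it was 2.71 ± 0.16, 1.71 ± 0.035 and 1.42 ± 0.090, and in 22Rv1 cells 2.28 ± 0.051, 1.99 ± 0.12 and 1.84 ± 0.069. The ratio was lower in every knockdown library than in every control of its line. CPSF6 over CPSF7 was 0.62 ± 0.035 in the LNCaP controls, 0.40 ± 0.034 in those of LNCaP95 and 0.89 ± 0.041 in those of 22Rv1. In LNCaP95 cells it was 0.55 ± 0.023 under CPSF1 sh1 and 0.49 ± 0.030 under CPSF1 sh2, above all controls, whereas the groups overlapped in the other lines. No test was made of these ratios.

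**Figure D3:**
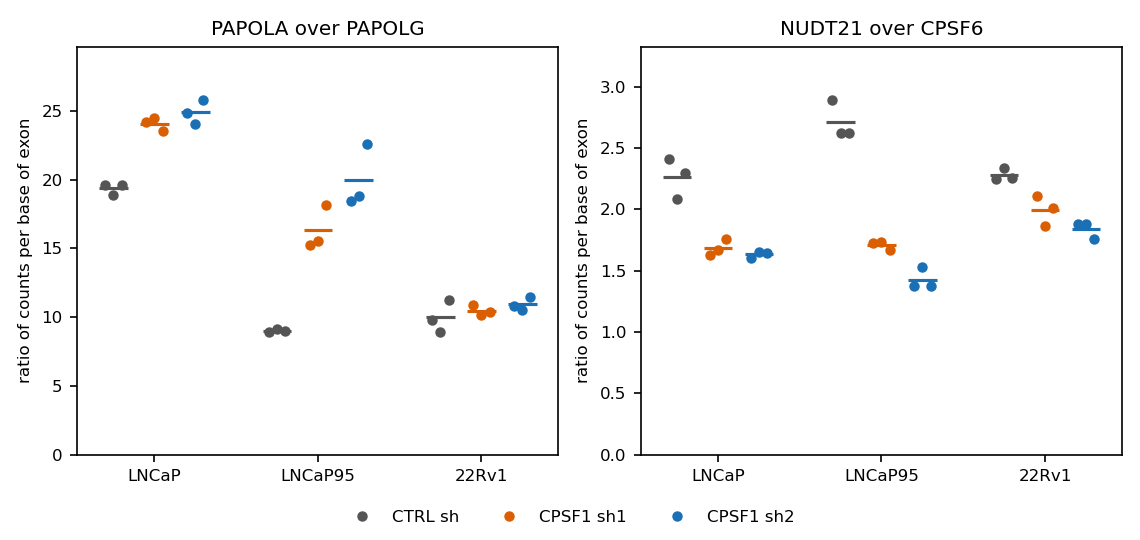
Ratio of counts per base of exon for PAPOLA over PAPOLG (left) and NUDT21 over CPSF6 (right) in each library, with CTRL sh in gray, CPSF1 sh1 in orange and CPSF1 sh2 in blue, and bars at group means of 3 libraries. The right ratio was lower in every CPSF1 sh library than in the CTRL sh libraries of its line, and the left ratio was higher in LNCaP and LNCaP95 cells and overlapped in 22Rv1 cells.

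Of the CFII genes, PCF11, which binds the C-terminal domain of RNA polymerase II (chr11:82868030-82898493), rose in LNCaP and 22Rv1 cells and not in LNCaP95 cells. In LNCaP cells its level was 87.1, 85.2 and 87.4 normalized CPM under CTRL sh, 116, 113 and 113 under CPSF1 sh1, and 129, 129 and 140.1 under CPSF1 sh2. In 22Rv1 cells it was 76.9, 75.8 and 71.0 under CTRL sh, 109, 112 and 99.2 under CPSF1 sh1, and 122, 115 and 119 under CPSF1 sh2. All knockdown libraries lay above all controls in both lines, and the log2 fold change of LNCaP was 0.51 ± 0.065 (adjusted p = 8.3e-06) and that of 22Rv1 0.60 ± 0.063 (adjusted p = 2.8e-05). In the main fit with the hairpins pooled, PCF11 was the sole member to rise in 22Rv1 cells, and its rise there was the largest of any member in any line. With CPSF1 sh2 alone, CPSF6 (0.19), PAPOLA (0.097), PABPN1 (0.16) and RBBP6 (0.28) passed there as well, where 2955 of 11766 genes rose. In LNCaP95 cells, where PCF11 began highest, it was 138, 147 and 146 under CTRL sh, 135, 141 and 129 under CPSF1 sh1, and 149, 142 and 141 under CPSF1 sh2. These groups overlapped (−0.05 ± 0.050, adjusted p = 0.43), and the sign turned under scaling by library size alone (0.04, adjusted p = 0.48).

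CLP1, an RNA kinase that also acts with the tRNA splicing endonuclease (chr11:57416465-57429340), rose in LNCaP cells. Its level was 13.8, 14.5 and 16.3 normalized CPM under CTRL sh, 16.8, 18.2 and 18.7 under CPSF1 sh1, and 19.5, 20.9 and 18.5 under CPSF1 sh2. The knockdown libraries lay above the controls, the nearest by a small margin, with a log2 fold change of 0.34 ± 0.087 (adjusted p = 0.0032). In LNCaP95 cells CLP1 ranged from 20.6 to 23.4 under CTRL sh and from 19.1 to 22.6 with knockdown (−0.11 ± 0.081, adjusted p = 0.27). In 22Rv1 cells it ranged from 13.6 to 15.4 and from 14.7 to 17.9 (0.13 ± 0.088, adjusted p = 0.28). CLP1 shares 268 exon bases, 9.60% of its exons, with YPEL4 on the other strand, which held 0 to 4 counts in a library.

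The ratio of PCF11 to CLP1 per base of exon was 2.01 ± 0.16 in the LNCaP controls, 2.24 ± 0.067 in those of LNCaP95 and 1.75 ± 0.051 in those of 22Rv1. With CPSF1 sh1 and CPSF1 sh2 it was 2.30 ± 0.37 and 2.54 ± 0.076 in 22Rv1 cells, above all controls, and it lay between 2.20 and 2.36 on average in the other lines.

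Of the polymerases, PAPOLA, which encodes the main nuclear poly(A) polymerase (chr14:96967770-97033448), rose in LNCaP and LNCaP95 cells. In LNCaP cells its level was 284, 282 and 291 normalized CPM under CTRL sh, 364, 387 and 386 under CPSF1 sh1, and 373, 373 and 384 under CPSF1 sh2. In LNCaP95 cells it was 265, 295 and 284 under CTRL sh, 373, 388 and 392 under CPSF1 sh1, and 394, 389 and 397 under CPSF1 sh2. The groups were far apart in both lines, with log2 fold changes of 0.40 ± 0.032 (adjusted p = 8.7e-08) and 0.47 ± 0.044 (adjusted p = 1.9e-06), and the hairpins differed by −0.01 in LNCaP and 0.03 in LNCaP95 cells (adjusted p = 0.87 and 0.55). In 22Rv1 cells PAPOLA ranged from 327 to 335 under CTRL sh and from 314 to 366 with knockdown (0.07 ± 0.046, adjusted p = 0.30). That value passed without CPSF1 sh1 replicate 3 (0.09, adjusted p = 0.032).

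PAPOLG, a second nuclear polymerase (chr2:60983365-61029220), fell in LNCaP95 cells. Its level there was 27.7, 30.01 and 29.4 normalized CPM under CTRL sh, 22.7, 23.2 and 20.1 under CPSF1 sh1, and 19.9, 19.3 and 16.4 under CPSF1 sh2. The knockdown libraries lay below all controls, with a log2 fold change of −0.51 ± 0.097 (adjusted p = 5.0e-04). In LNCaP cells it ranged from 13.5 to 13.9 under CTRL sh and from 13.9 to 15.3 with knockdown (0.07 ± 0.076, adjusted p = 0.49). In 22Rv1 cells, where its CTRL sh level did not pass the test against LNCaP95 cells, it ranged from 27.7 to 34.1 and from 28.2 to 31.3 (−0.05 ± 0.073, adjusted p = 0.68). PAPOLG held 117 to 383 counts in a library and CLP1 129 to 313, fewer than the other members.

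Together the polymerases shifted most in LNCaP95 cells. The ratio of PAPOLA to PAPOLG per base of exon was 9.03 ± 0.11 (SD, n = 3) under CTRL sh, 16.3 ± 1.6 under CPSF1 sh1 and 19.98 ± 2.3 under CPSF1 sh2. In LNCaP cells it was 19.4 ± 0.41, 24.1 ± 0.48 and 24.9 ± 0.86, and in 22Rv1 cells 10.00 ± 1.2, 10.5 ± 0.37 and 10.95 ± 0.47. The 6 knockdown libraries of LNCaP95 cells ranged from 15.3 to 22.6, around the LNCaP controls (18.9 to 19.6), and the 22Rv1 groups overlapped.

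PABPN1, the nuclear poly(A)-binding protein (chr14:23790498-23795394), fell in LNCaP and rose in LNCaP95 cells. In LNCaP cells its level was 79.7, 80.5 and 90.1 normalized CPM under CTRL sh, 79.6, 67.2 and 72.1 under CPSF1 sh1, and 73.0, 72.2 and 72.8 under CPSF1 sh2. In LNCaP95 cells it was 45.8, 43.8 and 50.9 under CTRL sh, 56.0, 55.5 and 54.4 under CPSF1 sh1, and 69.1, 64.6 and 68.4 under CPSF1 sh2. The LNCaP groups touched without overlapping, at 79.7 against 79.6, and the LNCaP95 groups were apart. PABPN1 changed by −0.20 ± 0.053 (log2) in LNCaP (adjusted p = 0.0048) and 0.39 ± 0.091 in LNCaP95 cells (adjusted p = 0.0022), and the LNCaP call was lost without CTRL sh replicate 3 (−0.14, adjusted p = 0.051). In 22Rv1 cells PABPN1 ranged from 89.9 to 93.6 under CTRL sh and from 87.6 to 112 with knockdown (0.14 ± 0.064, adjusted p = 0.11), and it passed without CPSF1 sh1 replicate 1 (0.18, adjusted p = 0.015).

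The PABPN1 row is less certain than the others. It shares 653 exon bases, 19.7% of its exons, with the read-through gene BCL2L2-PABPN1 on the same strand, and the sources used here do not say how fragments in both were assigned. That row held 5 to 69 counts in a library, against 488 to 1147 for PABPN1. The antisense AL049829.1 shares 279 bases and held at most 2 counts.

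RBBP6, the ubiquitin ligase that activates the cleavage complex (chr16:24549014-24584184), rose in LNCaP cells. Its level was 132, 133 and 135 normalized CPM under CTRL sh, 136, 146 and 144 under CPSF1 sh1, and 155, 167 and 161 under CPSF1 sh2. Knockdown libraries lay above the controls, with CPSF1 sh2 farther, and the log2 fold change was 0.19 ± 0.055 (adjusted p = 0.0088). That call rested on CPSF1 sh2 (0.27 ± 0.040, adjusted p = 5.6e-06), since CPSF1 sh1 by itself missed the threshold (0.09 ± 0.041, adjusted p = 0.056). In LNCaP95 cells RBBP6 ranged from 168 to 186 under CTRL sh and from 161 to 188 with knockdown, and the change was close to 0 and without a stable sign (−0.01 ± 0.058, adjusted p = 0.83). Scaling by library size alone gave 0.07 (adjusted p = 0.26). In 22Rv1 cells it was 152, 148 and 143 under CTRL sh, 159, 159.7 and 130.2 under CPSF1 sh1, and 175, 185 and 177 under CPSF1 sh2. The pooled value did not pass (0.16 ± 0.084, adjusted p = 0.19), but it did without CPSF1 sh1 replicate 3 (0.21, adjusted p = 0.0037).

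**Figure D4:**
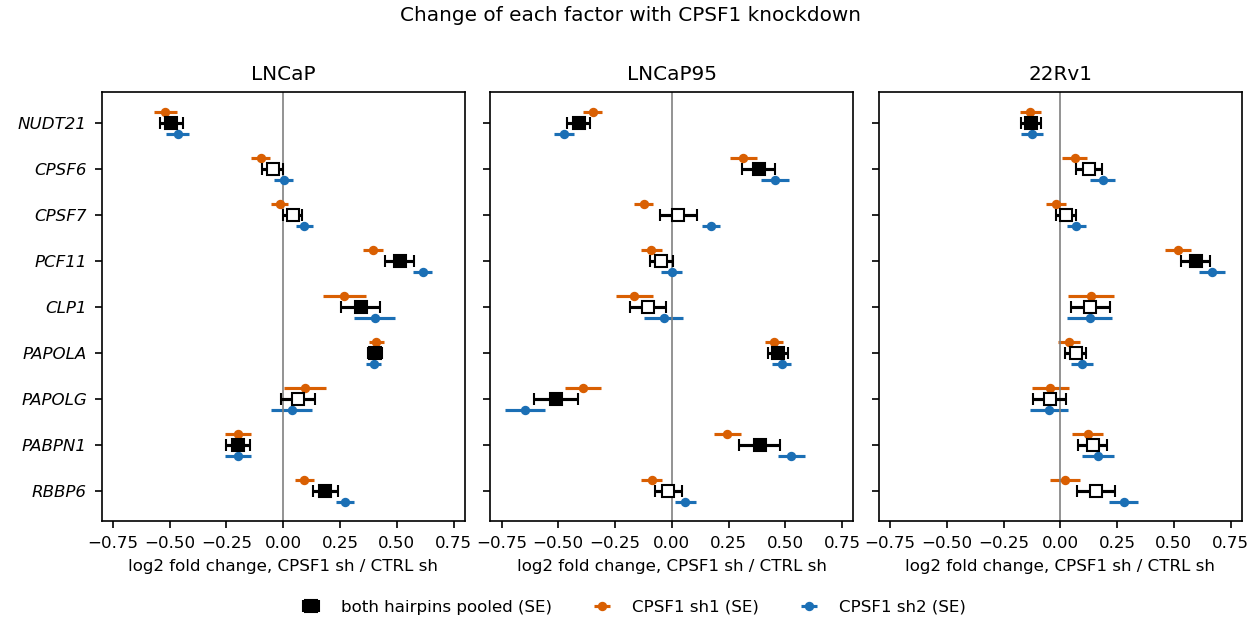
Log2 fold change against CTRL sh in each line for both hairpins pooled (squares, filled where the edgeR adjusted p was below 0.05), CPSF1 sh1 (orange) and CPSF1 sh2 (blue), with SE; the hairpins share 3 control libraries per line. NUDT21 fell in every line, and CPSF7 in LNCaP95 cells lay on opposite sides of 0 for the hairpins.

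The hairpins were compared directly, as CPSF1 sh2 minus CPSF1 sh1. In LNCaP cells 2 members differed, where 14.8% of all genes did: PCF11 by 0.22 ± 0.042 (adjusted p = 0.0013) and RBBP6 by 0.18 ± 0.040 (adjusted p = 0.0048). In LNCaP95 cells 5 differed, where 34.1% of all genes did. These were CPSF7, given above, PABPN1 by 0.28 ± 0.057 (adjusted p = 8.2e-04), RBBP6 by 0.15 ± 0.046 (adjusted p = 0.018), PAPOLG by −0.26 ± 0.088 (adjusted p = 0.029) and NUDT21 by −0.13 ± 0.044 (adjusted p = 0.030). In 22Rv1 cells 1 differed, where 11.3% did: RBBP6 by 0.26 ± 0.064 (adjusted p = 0.019), which rose with CPSF1 sh2 (0.28, adjusted p = 0.0027) and had a value of 0.02 with CPSF1 sh1 (adjusted p = 0.87). RBBP6 was thus higher under CPSF1 sh2 than under CPSF1 sh1 in each line. For CPSF1 itself the hairpins differed by −0.14, 0.00041 and 0.07 in the order LNCaP, LNCaP95, 22Rv1, none past the threshold (adjusted p = 0.077, 0.998 and 0.58).

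Several hairpin calls were lost when any of several single libraries was left out. Under leave-one-out, NUDT21 in LNCaP95 cells lost its call without CPSF1 sh1 replicate 1, 2 or 3 or CPSF1 sh2 replicate 2 or 3 (−0.13 to −0.10, adjusted p = 0.058 to 0.14). PAPOLG in LNCaP95 cells lost its call without CPSF1 sh1 replicate 1 or 2 or CPSF1 sh2 replicate 3 (−0.23 to −0.18, adjusted p = 0.10 to 0.18). RBBP6 lost it in LNCaP95 cells without CPSF1 sh1 replicate 1 or CPSF1 sh2 replicate 1 or 2 (0.12 to 0.14, adjusted p = 0.052 to 0.088), and in 22Rv1 cells without any CPSF1 sh2 library (0.24 to 0.27, adjusted p = 0.053 to 0.068). DESeq2 did not call NUDT21 or PAPOLG between hairpins in LNCaP95 cells (adjusted p = 0.054 and 0.073). PCF11 and RBBP6 in LNCaP and CPSF7 and PABPN1 in LNCaP95 cells kept their hairpin calls in every leave-one-out fit.

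Whether the knockdown effect differed between lines was tested as an interaction in a fit of all 27 libraries, with 10317 genes tested. Between LNCaP95 and LNCaP cells 5 of 9 members differed, where 50.9% of all genes did. The effect in LNCaP95 was higher for PABPN1 by 0.60 ± 0.11 on the log2 scale (adjusted p = 2.8e-05) and for CPSF6 by 0.45 ± 0.090 (adjusted p = 1.3e-04). It was lower for PAPOLG (−0.55 ± 0.12, adjusted p = 3.3e-04), PCF11 (−0.54 ± 0.087, adjusted p = 7.3e-06) and CLP1 (−0.43 ± 0.11, adjusted p = 0.0024).

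Between 22Rv1 and LNCaP cells 3 members differed, where 40.4% of all genes did: NUDT21 (0.38 ± 0.072, adjusted p = 1.2e-04), PABPN1 (0.35 ± 0.10, adjusted p = 0.0070) and PAPOLA (−0.32 ± 0.056, adjusted p = 4.3e-05). For NUDT21 and PAPOLA the effect was closer to 0 in 22Rv1 cells. Between 22Rv1 and LNCaP95 cells 6 differed, where 53.7% of all genes did. The effect in 22Rv1 was higher for PCF11 (0.64 ± 0.088, adjusted p = 7.4e-07), PAPOLG (0.46 ± 0.11, adjusted p = 8.8e-04) and NUDT21 (0.28 ± 0.072, adjusted p = 0.0019), and lower for PAPOLA (−0.40 ± 0.056, adjusted p = 8.2e-07), CPSF6 (−0.26 ± 0.089, adjusted p = 0.014) and PABPN1 (−0.25 ± 0.11, adjusted p = 0.0497). The CPSF6 difference lost its call without LNCaP95 CTRL sh replicate 1 (−0.18, adjusted p = 0.10), and that of PABPN1 in 18 of 27 leave-one-out fits. CPSF7 and RBBP6 passed in none of the 3 contrasts. By library size alone, the calls over all genes moved from 2759 higher and 2490 lower to 3568 and 1850 between LNCaP95 and LNCaP, and from 2746 and 2798 to 2122 and 3550 between 22Rv1 and LNCaP95 cells. All 14 member calls held under that scaling, and 13 under DESeq2, RLE size factors or filterByExpr, where the PABPN1 call between 22Rv1 and LNCaP95 cells was lost (adjusted p = 0.054, 0.057 and 0.095).

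Other genes of the reaction were taken as lists. Of 10 CPSF and CSTF subunits other than CPSF1, which read the signal and the GU-rich element downstream, 5 rose and 0 fell in LNCaP, 8 rose and 1 fell in LNCaP95, and 3 rose and 1 fell in 22Rv1 cells. Of all genes tested, LNCaP had 31.1% higher and 31.0% lower, LNCaP95 had 33.2% and 33.7%, and 22Rv1 had 12.7% and 14.3%. CSTF3, the scaffold of CSTF, rose most in each line, by 1.08 ± 0.061, 1.36 ± 0.078 and 0.67 ± 0.057 on the log2 scale (adjusted p of at most 7.9e-06), beyond any of the 9 members. The largest falls that passed were CSTF1 in LNCaP95 (−0.32 ± 0.068, adjusted p = 0.0011) and CPSF4 in 22Rv1 cells (−0.16 ± 0.050, adjusted p = 0.029). The list medians were 0.15, 0.30 and −0.02 in LNCaP, LNCaP95 and 22Rv1 cells.

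Of 19 other poly(A) polymerases, uridylyltransferases and poly(A)-binding proteins, 14, 14 and 13 were tested in LNCaP, LNCaP95 and 22Rv1 cells. In LNCaP 4 rose and 5 fell (31.1% and 31.0% of all genes), led by PAPD5, a noncanonical nuclear polymerase (0.48 ± 0.052, adjusted p = 2.1e-06), and PABPC1L (−0.77 ± 0.061, adjusted p = 8.4e-08). In LNCaP95 5 rose and 5 fell (33.2% and 33.7% of all genes), led by FAM46A (1.57 ± 0.20, adjusted p = 1.9e-05) and PAPD4, a cytoplasmic polymerase (−0.47 ± 0.067, adjusted p = 4.9e-05). In 22Rv1 cells the uridylyltransferase ZCCHC6 rose (0.35 ± 0.12, adjusted p = 0.041) and 0 fell (12.7% and 14.3% of all genes). The medians were −0.07, −0.03 and 0.04. Of the 4 subunits of the tRNA splicing endonuclease, the complex with which CLP1 acts in tRNA splicing, 1 rose and 2 fell in LNCaP (31.1% and 31.0% of all genes), 3 rose and 1 fell in LNCaP95 (33.2% and 33.7%), and 0 rose and 1 fell in 22Rv1 cells (12.7% and 14.3%). TSEN54 rose by 0.51 and 0.94 in LNCaP and LNCaP95 cells (adjusted p = 3.1e-04 and 2.5e-06), TSEN34 fell in each line (−0.21, −0.34 and −0.33, adjusted p = 0.0034, 4.1e-04 and 0.0048), and the medians were −0.17, 0.27 and 0.01.

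Across the 9 group means of log2 normalized CPM, which share lines and control hairpins and carry the level differences between lines, members were compared with 10308 genes as a description. The genes most like them were CDKAL1 for NUDT21 (Pearson r = 0.995), CDC5L for CPSF6 (0.994), CWC25 for PAPOLG (0.997) and L3MBTL1 for PABPN1 (0.991). They were PPP1R3F for PAPOLA (0.972), TSSC4 for CLP1 (0.969), UBE2O for PCF11 (0.955), ZNF264 for RBBP6 (0.944) and KPTN for CPSF7 (0.873). Among the members, CPSF6 and PABPN1 (r = 0.93) and the CFII partners PCF11 and CLP1 (0.91) were most alike, and CLP1 and PABPN1 least (−0.84). NUDT21 and CPSF6 gave 0.80, and the polymerases PAPOLA and PAPOLG −0.22.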

How the data were processed

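The authors prepared stranded mRNA libraries, aligned paired-end reads to GRCh37 (HISAT2 2.1.0) and used Subread featureCounts to count fragments on Ensembl exons, set for reverse-stranded libraries. The submitters' processing notes name Subread 2.0.3 and the methods another version. How fragments in several genes were assigned is not given in the sources used here. The deposited table holds raw counts for 20268 gene symbols, with coordinates and exon lengths, and the names of its 27 count columns gave their samples.

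Each line was fitted alone in R 4.3.3 with edgeR 4.0.16. The filter (above 2 CPM in all 9 libraries) and the quasi-likelihood F-test of 3 CTRL sh against 6 CPSF1 sh libraries follow the study's methods, and TMM scaling and the legacy form of the test were chosen here. P-values were adjusted over all genes tested (Benjamini-Hochberg, threshold 0.05). Hairpins were compared in fits of 3 groups per line, effects between lines in a fit of 27 libraries, and levels in 9 CTRL sh libraries. Normalized CPM and RPKM use TMM-scaled library sizes. Fold changes carry SE, and levels SD. Alternatives were DESeq2 1.42.0, the current edgeR test, RLE or library size scaling, other filters, each hairpin alone, a replicate block and leaving out each library.

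The members and lists were chosen with earlier results of these data known. Named were all members, CPSF1, genes that share exon bases with a member, and the gene most like each member. The largest rise and fall past the threshold in each list and line were named too. Replicates differed beyond counting error, with chi-square per degree of freedom of 1.393 to 7.306. Tested on simulated data with 200 changed genes per line, the knockdown fit recovered 53.7%, 35.8% and 46.3% of log2 changes of 0.25 and 98.5%, 95.5% and 97.0% of 0.5 in LNCaP, LNCaP95 and 22Rv1 (11410, 11551 and 11908 genes). Of the calls, 3.45%, 7.78% and 5.29% were false. Far fewer genes were changed there than were called in the real data. All genes of a line had the same biological variation, that of the fit with the hairpins pooled. These rates therefore describe the simulated setting and may differ for the fits above. Results for some marker genes are not reported here.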

Additional observations from a re-analysis of the deposited data

Results flagged for a closer look

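The knockdown effect differed between lines in 14 combinations of a member and a line contrast, by the interaction test in edgeR at an adjusted p below 0.05. These were 5 of 9 members for LNCaP95 minus LNCaP, 3 for 22Rv1 minus LNCaP and 6 for 22Rv1 minus LNCaP95. Of all genes, 50.9%, 40.4% and 53.7% differed in the same contrasts. For LNCaP95 minus LNCaP, the log2 differences were −0.55 for PAPOLG, −0.43 for CLP1, −0.54 for PCF11, 0.45 for CPSF6 and 0.60 for PABPN1. For 22Rv1 minus LNCaP they were 0.35 for PABPN1, −0.32 for PAPOLA and 0.38 for NUDT21. For 22Rv1 minus LNCaP95 they were 0.46 for PAPOLG, 0.64 for PCF11, −0.26 for CPSF6, −0.25 for PABPN1, −0.40 for PAPOLA and 0.28 for NUDT21. The line contrasts share libraries, and line and culture medium cannot be told apart in those with LNCaP95. Between 22Rv1 and LNCaP95 cells the PABPN1 difference lost its call in 18 of 27 leave-one-out fits (log2 difference −0.30 to −0.20 over all 27), including each fit without 1 of the 3 CTRL sh libraries of 22Rv1 or 1 of the 3 CPSF1 sh2 libraries of LNCaP95. Dixon's ratio for a single stray value was applied to the CPSF1 sh libraries of each member and line, both hairpins together. It gave 0 of 27 groups past the 95% limit. Where the hairpins differ, their difference widens the range, and a stray library can go unflagged. Over all genes, 22Rv1 CPSF1 sh1 replicate 3 stood apart from its group. Without that library CPSF6 (0.16), PAPOLA (0.095) and RBBP6 (0.21) passed in 22Rv1 cells.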

How the results depend on the processing

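Each of the 27 knockdown values kept its direction and its side of the threshold under DESeq2, the current edgeR test and RLE size factors, and so did 26 under filterByExpr, 26 without a filter and 24 by library size alone, but 21 with CPSF1 sh1 and 18 with CPSF1 sh2 as the sole hairpin (2 calls lost and 1 gained with the former, 6 gained with the latter). The values that turned sign, none of which passed the threshold with hairpins pooled, were PCF11 (0.040) and RBBP6 (0.071) in LNCaP95 by library size alone, CPSF7 in LNCaP95 with filterByExpr (−0.012) or no filter (−0.022), CPSF7 for CPSF1 sh1 in LNCaP (−0.017), LNCaP95 (−0.12, adjusted p = 0.026) and 22Rv1 (−0.011), and, for CPSF1 sh2, CPSF6 in LNCaP (0.0015) and PCF11 (0.00043) and RBBP6 (0.059) in LNCaP95. Leaving out single libraries turned CPSF7 (−0.0023 to 0.062) and RBBP6 (−0.059 to 0.018) in LNCaP95 and PAPOLG in 22Rv1 (−0.12 to 0.027).

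In 22Rv1 cells the count of members that fell was 0 by library size alone, with CPSF1 sh1 alone and with a replicate block. The count that rose was 2 with the hairpins as separate groups and 5 with CPSF1 sh2 alone. Of 11728 genes, 1630 rose and 1553 fell there by library size alone, and 1197 and 1441 with the block. With the hairpins as separate groups 1954 rose and 2231 fell. Members differing between hairpins in LNCaP95 numbered 3 with DESeq2. That fit called 1539 of 11143 genes higher and 1509 lower, against 3801 calls in the main fit. Over leave-one-out fits, members that fell numbered 1 to 2 in LNCaP and 0 to 1 in 22Rv1, members that rose in 22Rv1 1 to 4, and members differing between hairpins 2 to 6 in LNCaP95 and 0 to 1 in 22Rv1. Over all genes, 22Rv1 calls were 849 higher and 1004 lower for CPSF1 sh1, 2955 and 3095 for CPSF1 sh2, and 875 and 1129, 884 and 1091, and 887 and 1114 without CTRL sh replicate 1, 2 or 3, against 1487 and 1673, and DESeq2 gave 461 and 600 hairpin calls in LNCaP against 1639 in all. The cause was not tested.

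Replicate numbers are shared between groups, and the numbers were not taken as pairing. Deviations of same-numbered libraries correlated above 0.1 in 3 of 9 pairs for LNCaP, 3 of 9 for LNCaP95 and 1 of 9 for 22Rv1. Pairs with different numbers reached 0.074 in LNCaP, 0.24 in LNCaP95 and 0.28 in 22Rv1. Between CPSF1 sh1 and CPSF1 sh2 of LNCaP cells, replicates 1 and 3 gave 0.28 and 0.20 with their own number. They gave −0.27 and −0.20 with each other's number. Deviations were taken from each group's own mean, so these negative values are tied to the positive ones and are no separate evidence. A shared batch in LNCaP was not tested. With the replicate block, NUDT21 in 22Rv1 missed the threshold (−0.13, adjusted p = 0.075), as did PABPN1 between 22Rv1 and LNCaP95 (−0.25, adjusted p = 0.062). In the simulated data, which had far fewer changed genes than were called here, changes near 0.25 on the log2 scale were recovered only in part.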
